A study of Gallus gallus with 6 samples.

Results

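The B cell and plasma cell genes followed here are IGLL1, JCHAIN, CD79B, CD72, TNFRSF13B, BTK, PAX5, EBF1, POU2AF1 and IRF4. Every probe set annotated to exactly these gene symbols was taken, whatever its signal, which gave 24 of the 38439 probe sets on the array other than controls. IGLL1 had 8 of them, PAX5 had 4, CD72, TNFRSF13B, EBF1 and POU2AF1 had 2 each, and the other genes had 1. RNA from the ovaries of 6 hens (Gallus gallus) was hybridised to Affymetrix chicken arrays, 1 array per hen, on which several short probes report each transcript by their brightness. The cancer group held hens 4, LB14 and LB11, whose ovarian tumours were at stage 2, within the ovary, or stage 3, with seeding of the abdomen; which hen had which stage is not stated. The normal group held hens 36, LB3 and LB22, in which neither gross inspection nor histology found ovarian cancer. Age and laying status were matched across the groups, and the labels name no breed, age or treatment. Laying hens can develop such tumours spontaneously. RNA came from the whole ovary, so each value mixes all the cells present, and in such samples more B lineage cells and more RNA per cell cannot be told apart.

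B cells carry an antibody on their surface as the antigen receptor, and plasma cells are their descendants that secrete antibody in bulk. In birds, B cells mature in the bursa of Fabricius, where the light chain variable gene is diversified by copying stretches from neighbouring pseudogenes, and chickens make light chains of the lambda type only. Plasma cells in the mucosa of the hen's reproductive tract secrete IgA, and the yolk takes up IgY from the blood. PAX5 and EBF1 set B cell identity, whereas IRF4 drives the step to the plasma cell, in which PAX5 is switched off.

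No difference between cancer and normal ovaries passed the test for any of the 10 genes. With limma fitted over all 38439 probe sets, 0 of the 24 member probe sets were past an adjusted p of 0.05 in either direction, and 1 had an unadjusted p under 0.05. Over the whole array 0.0989% of probe sets were called higher in cancer, 0.0156% were called lower, and 8.32% had an unadjusted p under 0.05. Calls were so rare over the array that 0 of 24 is near the background. The cancer and normal values did not overlap on 1 of the 24, beside 13.3% of all probe sets. Over the 24, the median log2 difference was 0.06, beside 0.02 over all probe sets. Normal LB3 had the highest signal of the 6 hens for 5 of the 10 genes, beside 14.7% of all probe sets. For TNFRSF13B, 1 of the 5, it was level with hen 36 (109.07 and 109.04). Both antibody genes spanned more than 3-fold among normal ovaries with nearly equal group means.

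The mRNAs of antibody itself were bright in every ovary. IGLL1, which in the chicken stands for the immunoglobulin lambda light chain locus (IgL is a synonym of IGLL1 in the RefSeq gene table), was read by 8 probe sets. On the brightest, the signal intensity was 13138 in hen 4, 17378 in LB14 and 30561 in LB11 with cancer, against 9296 in hen 36, 29324 in LB3 and 21032 in LB22 without. Tumour LB11 and normal LB3 were the highest and lay close together, normal hen 36 was the lowest, and the groups overlapped. The group means were 20359 ± 9086 in cancer and 19884 ± 10063 in normal ovaries (SD, n = 3 each). The log2 difference, cancer minus normal on the log2(signal + 16) scale, was 0.09 (SE 0.43, 95% interval −0.88 to 1.06, limma adjusted p = 0.978). It was 0.45 without normal LB3, −0.38 without normal 36 and −0.24 without cancer LB11.

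Another 4 IGLL1 probe sets were bright too and ordered the hens in the same way, with mean signals from 14993 to 17985 and log2 differences from 0.06 to 0.09. They target the same locus, so the 5 are repeated readings and not independent ones. The brightest probe set and 2 of these 4 carry the Affymetrix suffix x_at, for probes that may also match related transcripts. All 5 had tumour LB11 highest and normal hen 36 lowest, with 3.01-fold to 3.31-fold between those ovaries.

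On the probe set that came sixth in mean signal, also annotated to IGLL1, the hens were much further apart. It read 55.2 in hen 4, 84.0 in LB14 and 940 in LB11 among the tumours, against 60.02 in hen 36, 2337 in LB3 and 237 in LB22 among normal ovaries. The highest and lowest ovaries differed 42.3-fold here, and the same ovaries, LB11 and LB3, stood above the rest of their groups as on the bright probe sets. Its SD among normal hens was 2.51 on the log2 scale, above that of 99.98% of all probe sets. The log2 difference was −0.91 with an SE of 1.26 (limma adjusted p = 0.912), and it was 0.45 without normal LB3. A companion probe set with the suffix s_at, for probes shared by several transcripts, stayed between 47.8 and 58.0 in all 6 ovaries. The brightest probe sets of CD79B, CD72, BTK and POU2AF1, given below, carry the suffix s_at too. The dimmest IGLL1 probe set was above the background limit only in tumour 4 (30.9), where that limit is the upper end of control probes for absent transcripts. The limit was 25.5 on the array of hen 4 and 38.6 to 44.6 on the others, so weak signals pass more easily in hen 4.

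**Figure D1:**
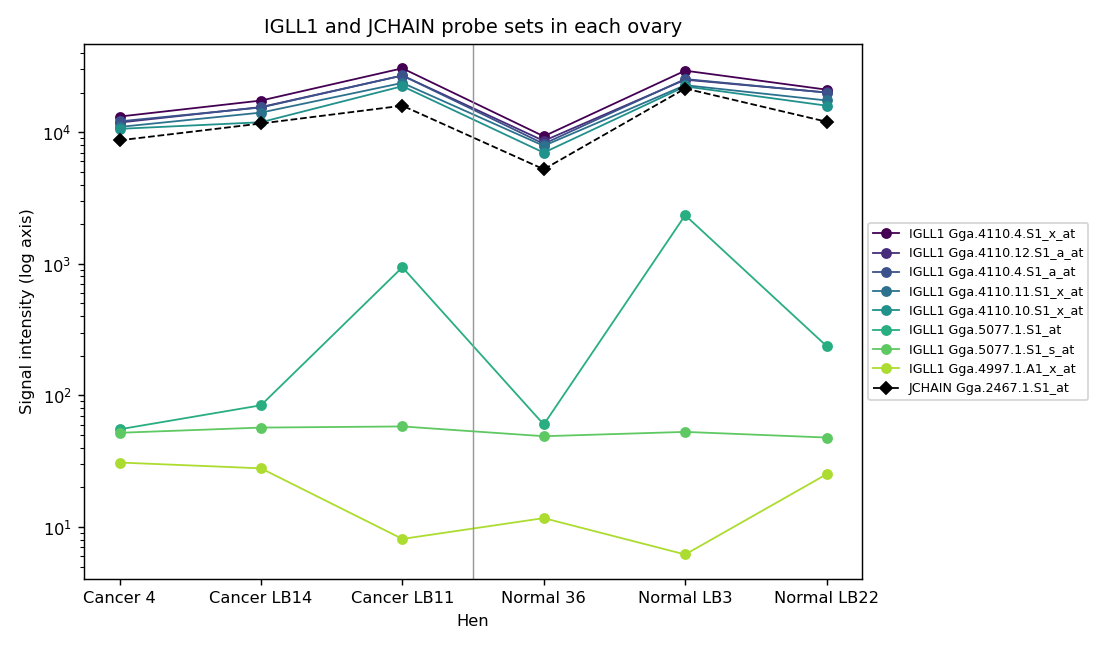
Signal intensity (log axis) of the 8 IGLL1 probe sets and the JCHAIN probe set in each ovary, with the 3 cancer hens left of the vertical line and the 3 normal hens right of it; lines only link readings of 1 probe set. The 5 bright IGLL1 probe sets and JCHAIN rise and fall together, with normal 36 lowest, and the probe set sixth in mean signal spans 55.2 to 2337.

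JCHAIN encodes the joining chain, which links IgA and IgM units into polymers and is made by cells that secrete antibody. Its signal was 8666 in hen 4, 11632 in LB14 and 15882 in LB11 with cancer, against 5221 in hen 36, 21459 in LB3 and 11997 in LB22 without. Both extremes were normal ovaries, 4.11-fold apart, and all 3 tumours lay between them. The means were 12060 ± 3627 in cancer and 12892 ± 8156 in normal ovaries (SD, n = 3 each), and the log2 difference was 0.08 (SE 0.45, 95% interval −0.93 to 1.10, limma adjusted p = 0.983). Its sign also rested on which hens were included, with 0.56 without normal LB3, −0.46 without normal 36 and −0.14 without cancer LB11. An exact two-sided permutation test over the hens gave p = 1, and p = 0.9 for the brightest IGLL1 probe set; groups of 3 and 3 cannot give a p below 0.1.

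The JCHAIN and IGLL1 profiles over the 6 hens were the most alike of the 45 pairs of members. After each gene was centred on its own mean, they differed by a root mean square of 0.17 on the log2 scale. TNFRSF13B with EBF1 came next, at 0.27, followed by JCHAIN with POU2AF1, at 0.34. Among 5430 other genes that varied by at least 1 on this scale, those nearest to IGLL1 were CDC42EP2 (0.17), PRDM8 (0.20), C11orf70 (0.20), PARK2 (0.20) and SOX14 (0.21). Those nearest to JCHAIN were SOX14 (0.073), DRGX (0.18), KCNQ3 (0.19), TM6SF2 (0.19) and RIPPLY2 (0.21). SOX14, listed for both, had signals of only 10.7 to 97.0. CDC42EP2 and PRDM8 were each above background in only 1 tumour and 1 normal ovary. Of the genes named here, only PARK2 and RIPPLY2 were above background in all 6 ovaries. With 6 arrays and 5430 candidates, close profiles of this kind are a description only.

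Among receptors at the cell surface, CD79B encodes a signalling partner of the B cell antigen receptor. It read 106 in hen 4, 152 in LB14 and 143 in LB11 with cancer, against 84.9 in hen 36, 216 in LB3 and 59.2 in LB22 without. The tumours were close to each other and fell inside the range of the normal ovaries, with LB3 again on top. The log2 difference was 0.30 (SE 0.43, 95% interval −0.68 to 1.27, limma adjusted p = 0.916) and became 0.77 without LB3 (adjusted p = 0.663). It was −0.046 without LB22, the lowest normal ovary.

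CD72, an inhibitory co-receptor of B cells, was dim in all ovaries. Its brighter probe set gave 28.2 in hen 4, 98.6 in LB14 and 111 in LB11 with cancer, against 34.3 in hen 36, 68.5 in LB3 and 70.0 in LB22 without. In both groups the hen without the LB prefix was the lowest, and in normal hen 36 the signal was below that array's background limit of 42.0. The log2 difference was 0.27 (SE 0.47, limma adjusted p = 0.933). The second CD72 probe set was above background in tumour 4 alone (59.7) and had 12.2 to 21.6 in the other ovaries.

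TNFRSF13B encodes TACI, a receptor for the B cell survival factor BAFF. Signals were 55.3 in hen 4, 55.9 in LB14 and 69.0 in LB11 with cancer, against 109 in hen 36, 109 in LB3 and 67.8 in LB22 without. Normal hens 36 and LB3 were level and stood above all tumours, and LB22 lay just under tumour LB11, so that the groups overlapped only there. The log2 difference of −0.53 (SE 0.32, 95% interval −1.25 to 0.19) was not past the threshold (limma adjusted p = 0.737), and it was negative on the other probe set too (−0.59), which was above background only in normal LB3.

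BTK, the kinase that passes the receptor's signal on and that macrophages and other myeloid cells also use, varied least between hens among the brightest probe sets of the 10 genes, 1.54-fold in all. It read 152 in hen 4, 202 in LB14 and 234 in LB11 with cancer, against 172 in hen 36, 234 in LB3 and 167 in LB22 without. The ranges of the groups nearly coincided. The log2 difference was 0.03 (SE 0.28, 95% interval −0.60 to 0.66, limma adjusted p = 0.990).

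**Figure D2:**
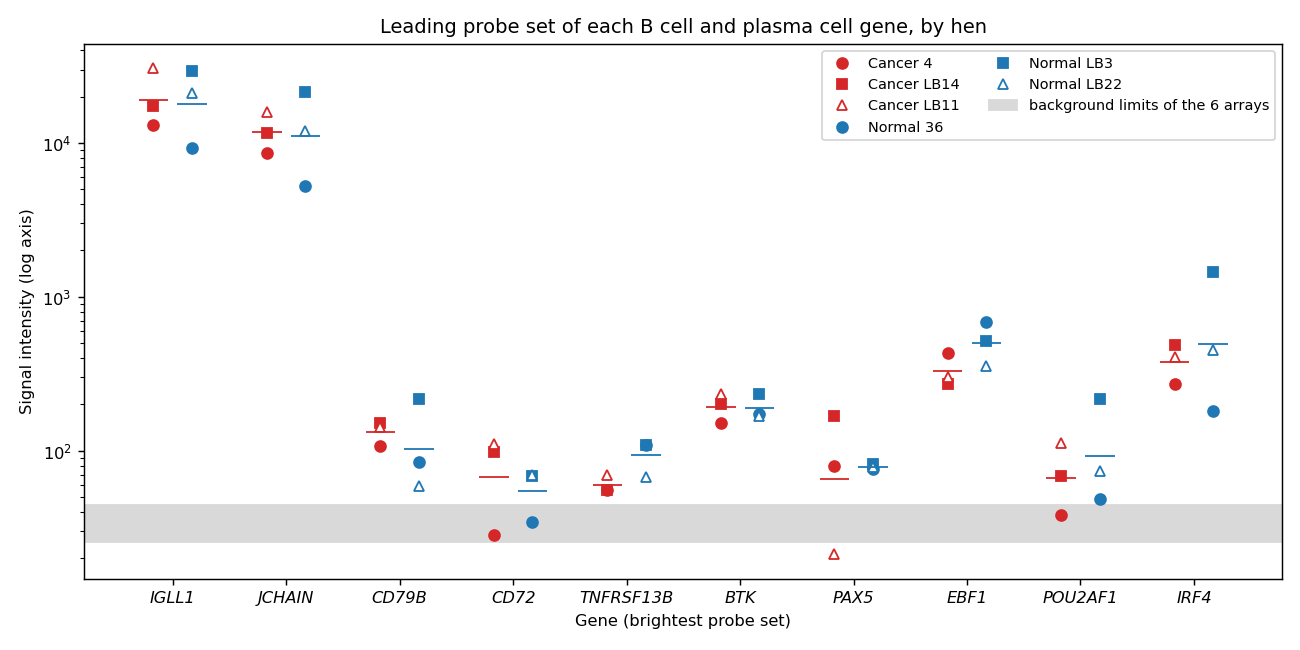
Signal intensity (log axis) of the brightest probe set of each gene, with cancer hens left (red) and normal hens right (blue) within each gene, a symbol per hen and a line at the mean of the log2 signals; the grey band spans the background limits of the 6 arrays, and levels of different genes are not comparable. Normal LB3 (filled blue squares) is the highest ovary for JCHAIN, CD79B, POU2AF1 and IRF4, and cancer and normal values overlap in all 10 genes.

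The regulators of the lineage differed in how far they stood above background. IRF4, the transcription factor of plasma cell differentiation, which activated T cells and some macrophages also express, gave 271 in hen 4, 487 in LB14 and 409 in LB11 with cancer. In normal ovaries it gave 181 in hen 36, 1449 in LB3 and 453 in LB22, so LB3 was 8.02 times hen 36 and far above every tumour. The SD on the log2 scale was 0.41 among tumours and 1.45 among normal ovaries, and 99.8% of all probe sets had a smaller SD among normal ovaries than IRF4. The log2 difference was −0.38 (SE 0.61, 95% interval −1.76 to 1.001, limma adjusted p = 0.925) and turned to 0.38 without LB3. It was −1.07 without normal 36.

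POU2AF1 encodes a B cell coactivator, also called OBF-1, that works with octamer-binding factors at immunoglobulin promoters. Its brighter probe set gave 38.5 in hen 4, 68.3 in LB14 and 112 in LB11 with cancer, against 48.4 in hen 36, 218 in LB3 and 73.8 in LB22 without. The order of the hens within each group was that of JCHAIN. The log2 difference of −0.40 (SE 0.53, limma adjusted p = 0.906) turned to 0.14 without LB3 and was −0.79 without normal 36. Its other probe set was above background only in tumour 4 and in normal LB3, with a difference of 0.30. In tumour 4 it read 25.8 against that array's low limit of 25.5. Tumour LB14 read 37.0, under its own limit of 44.0.

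EBF1, which opens the B cell programme and is also expressed in stromal and fat cell precursors, was ordered differently from the antibody genes. It gave 434 in hen 4, 270 in LB14 and 303 in LB11 with cancer, against 684 in hen 36, 516 in LB3 and 353 in LB22 without. Hen 36, the lowest for IGLL1 and JCHAIN, was the highest here, and only tumour 4 lay above the lowest normal ovary. The log2 difference was −0.58 (SE 0.29, 95% interval −1.24 to 0.08), and was not past the threshold (limma adjusted p = 0.665). It was −0.36 without normal 36 and −0.82 without normal LB22. The dimmer EBF1 probe set differed by −0.25. The summed signal of stromal markers ranged over 28888 to 92824 in cancer and 77356 to 103293 in normal ovaries.

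PAX5, the factor that holds B cells to their identity, was mostly at background except on its brightest probe set. That probe set was above background in 2 tumours and in all 3 normal ovaries. Of its 4 probe sets, 2 were at or below the limit in all 6 ovaries. The brightest probe set gave 80.1 in hen 4, 169 in LB14 and 21.2 in LB11 with cancer, against 76.5 in hen 36, 81.8 in LB3 and 78.2 in LB22 without. The normal ovaries were nearly identical, while the tumours held both the highest value and the lowest, which was below background, and the log2 difference was −0.12 (SE 0.53, limma adjusted p = 0.978). The remaining PAX5 probe set was the 1 member probe set without overlap between the groups and the 1 with an unadjusted p under 0.05. It gave 40.3, 30.1 and 29.0 in the tumours of hens 4, LB14 and LB11, against 2.87, 21.1 and 3.45 in normal hens 36, LB3 and LB22. Only tumour 4 exceeded its array's background limit there, which was the lowest of the 6 arrays. The log2 difference of 1.03 (SE 0.34) had a limma adjusted p of 0.440.

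**Figure D3:**
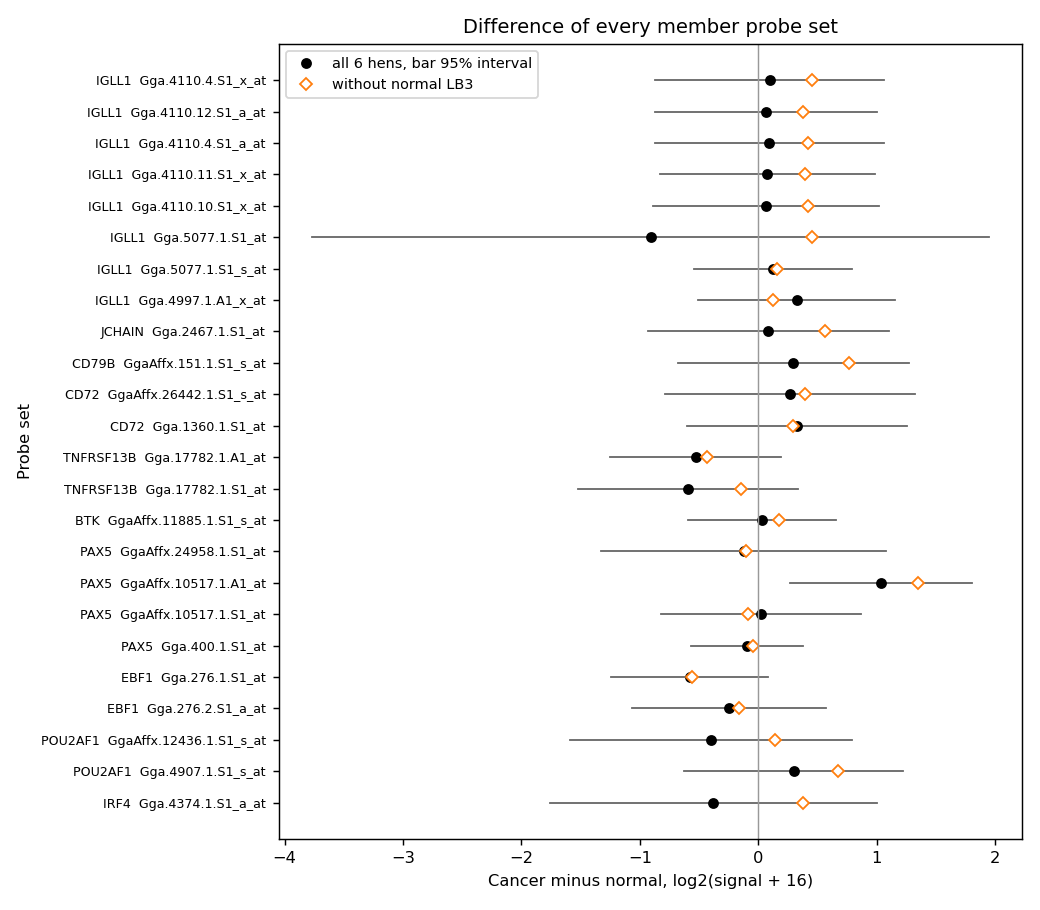
Cancer minus normal difference in log2(signal + 16) for each of the 24 member probe sets (black points) with limma's 95% interval (bars, 3 hens per group), and the difference with normal LB3 left out (open diamonds). The interval includes 0 on every probe set except the near-background PAX5 probe set at 1.03, and leaving out LB3 moves JCHAIN to 0.56, CD79B to 0.77 and IRF4 to 0.38. Leaving out the other hens is not drawn. Without normal 36, JCHAIN was −0.46 and IRF4 −1.07, and without normal LB22, CD79B was −0.046. Without cancer LB11, JCHAIN was −0.14.

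The spread between normal hens was wide for IRF4, as given, and for both antibody genes, POU2AF1 and CD79B. The SD of log2(signal + 16) was 0.44 among tumours and 1.02 among normal ovaries for JCHAIN, and 0.62 among tumours and 0.97 among normal ovaries for POU2AF1. For IGLL1 it was 0.62 in tumours and 0.85 in normal ovaries, and for CD79B 0.24 in tumours and 0.84 in normal ovaries. The median over all probe sets was 0.38 in tumours and 0.27 in normal ovaries, so the typical probe set varied more among tumours. The SD was smaller among the cancer hens than among the normal hens in 7 of the 10 genes, whereas 36.2% of all probe sets had the smaller SD in cancer. With 3 hens a group these SDs are themselves imprecise, and their difference was not tested. PAX5, CD72 and BTK went the other way, and for PAX5 and CD72 the tumour SD included a value near background. A wider spread among normal ovaries was not particular to these 10 genes. The median SD of 7 general leucocyte genes was 0.52 in tumours and 0.69 in normal ovaries. For T cell genes it was 0.66 in tumours and 0.44 in normal ovaries, and for macrophage genes 0.50 and 0.44. For the 42 other B lineage genes read below it was 0.37 in tumours and 0.21 in normal ovaries. That is the direction of the typical probe set, so the wider normal spread was not shared by the lineage at large.

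**Figure D4:**
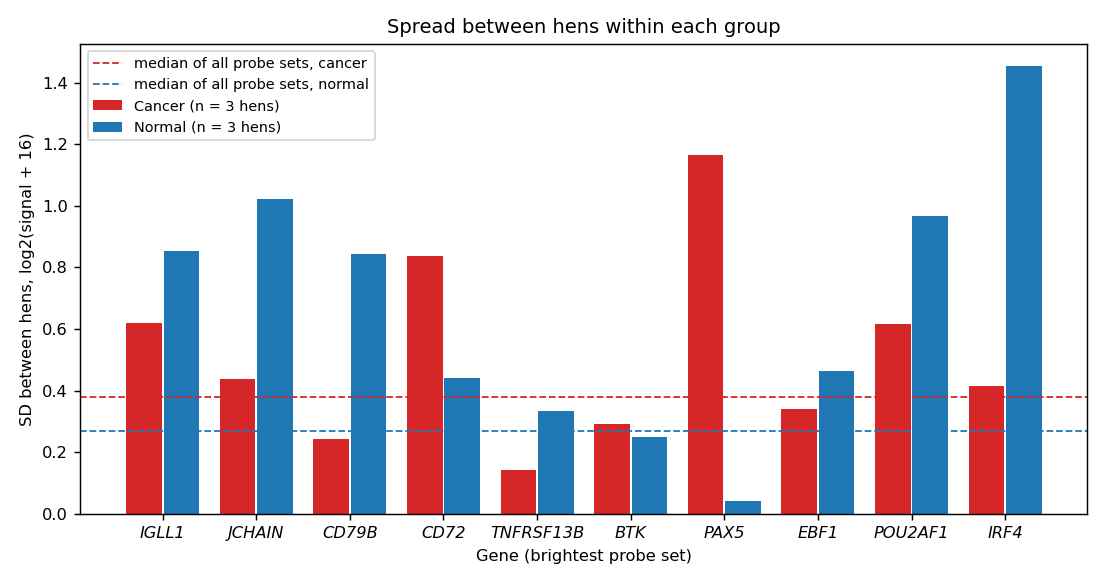
SD between hens of log2(signal + 16) for the brightest probe set of each gene, with cancer (red, left) and normal (blue, right), n = 3 hens each; dashed lines mark the median SD over all probe sets in cancer (0.38) and in normal ovaries (0.27). IRF4, JCHAIN, POU2AF1, IGLL1 and CD79B vary more among normal ovaries than the typical probe set, from 0.84 to 1.45.

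The hens whose titles lack the LB prefix, hen 4 with cancer and hen 36 without, were the lowest of their groups for IGLL1, JCHAIN, CD72, POU2AF1 and IRF4. This held on 5 of the 10 brightest probe sets, beside 12.6% of all probe sets. Normal LB3 was the highest of all hens on 5 of the 10, beside 14.7% of all probe sets. These orderings were noticed in the data, and no label explains the prefix. Within the LB hens alone, IGLL1 differed by −0.11 and JCHAIN by −0.24 on the log2 scale. With the prefix as a block no member probe set was past the threshold either.

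Other genes of the lineage were read from 4 lists, of which 42 of 59 genes were found on the array. The rest were not analysed here. By limma 0 of the 42 passed in either direction and 7 had an unadjusted p under 0.05, beside 8.32% of all probe sets. There were 21 positive and 21 negative differences, with a median of −0.00019, beside 0.02 over all probe sets. For the signalling chain behind the antigen receptor, 0 of 12 genes passed. The adaptor gene BANK1 differed by 0.72 (SE 0.31), the exchange factor gene VAV3 by 0.52 (SE 0.20), the phospholipase gene PLCG2 by 0.32 (SE 0.33) and the kinase gene SYK by −0.56 (SE 0.38). SYK was highest in normal LB3, at 165. The limma unadjusted p was under 0.05 for BANK1 and VAV3, both higher in cancer. BANK1 was the 1 gene of the 12 without overlap, with every tumour above every normal ovary. Over the 42 genes the groups did not overlap for 4, beside 13.3% of all probe sets. Of the lineage's transcription factors 0 of 11 passed, with SPI1 at −0.49, BCL6 at 0.34, PRDM1 at −0.28 and FOXP1 at 0.26. PRDM1, which encodes the plasma cell factor BLIMP-1, was above background in 1 tumour and in 1 normal ovary only.

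For diversification, homing and survival, 0 of 9 genes passed. TNFSF13B, the gene of BAFF and thus of a ligand of TACI, gave 2289, 4443 and 2332 in hens 4, LB14 and LB11 with cancer, against 4762, 4376 and 3687 in hens 36, LB3 and LB22 without. Tumour LB14 fell within the normal range and the other tumours below it. The log2 difference was −0.56 (SE 0.26, limma adjusted p = 0.628). Neither this difference nor that of the receptor gene TNFRSF13B was past the threshold. RAG1 and CXCR4 differed by −0.36 each, and CXCL13L2, a relative of the chemokine that draws B cells into follicles, by −0.24. RAG1 was above background in 1 tumour only, and CXCR5, the receptor for that chemokine, in no ovary.

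Among genes for antibody secretion and transport 0 of 10 passed, with 3 positive and 7 negative differences. A limma unadjusted p under 0.05 was seen for 5, beside 8.32% of all probe sets. Of these, TXNDC5, SDC1, ELL2 (−0.61) and HSP90B1 (−0.53) were lower in cancer and PIGR was higher. Cancer and normal values did not overlap for 3 of the 10, all lower in cancer, beside 13.3% of all probe sets. These were TXNDC5, ELL2 and HSP90B1, which were above background in every ovary. Which cells gave their signal was not tested. TXNDC5, a disulfide isomerase of the endoplasmic reticulum, had signals of 2141, 2356 and 2415 in hens 4, LB14 and LB11 with cancer, against 4364, 3430 and 4173 in hens 36, LB3 and LB22 without. Every tumour was below every normal ovary, and the log2 difference was −0.78 (SE 0.16, limma adjusted p = 0.210). SDC1, syndecan-1, a plasma cell marker that epithelia also make, differed by −0.78 (SE 0.29, adjusted p = 0.513) and had overlapping groups. PIGR encodes the receptor that carries polymeric IgA with its joining chain across epithelia. It read 410 in hen 4, 841 in LB14 and 22.2 in LB11 with cancer, against 14.6 in hen 36, 43.4 in LB3 and 33.4 in LB22 without. It was high in 2 tumours, above background in normal LB3 alone among the normal ovaries, and below background in tumour LB11. The log2 difference was 2.43 (SE 0.97, limma adjusted p = 0.547). Without LB11 it was 3.76 (SE 0.45) and past the threshold (limma adjusted p = 0.0185). That fit leaves out the very tumour that lacked the signal, and over the array it called 139 probe sets higher in place of 38. It therefore does not show a rise in the cancer group as sampled. PDIA4, another isomerase, differed by 1.93 (SE 1.41). Normal LB22 read 36.6 there and the other 5 ovaries 2615 to 4792.

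Markers of other cells were read in the same ovaries. The summed signal of 7 general leucocyte genes, which include PTPRC (CD45), was 10667 to 15267 in cancer and 11512 to 17046 in normal ovaries, highest in LB3 as for IRF4 and JCHAIN. The 11 macrophage genes summed to 13092 to 14698 in cancer and 9187 to 21997 in normal ovaries, again with LB3 highest. Hen 36, the lowest normal ovary for IGLL1, JCHAIN and IRF4, was not the lowest for either list: its median over genes, centred as in the plot of gene lists by hen, was 0.21 for leucocyte and 0.017 for macrophage genes, against −0.60 and −0.35 in normal LB22. The 11 T cell genes summed to 3639 to 4798 in cancer and 2433 to 4156 in normal ovaries, highest in tumour LB14. These sums weigh bright probe sets most, and by the centred median of the T cell genes tumour 4 was the lowest of the 6 hens (−0.59). No gene of these 3 lists was past the limma threshold, and the defining gene CD3E was above background in all 6 ovaries, whereas LCK was below it in all 6. The groups did not overlap for the T cell gene CD247 and the macrophage gene MRC1L-A, both higher in cancer. For comparison, 13.3% of all probe sets had no overlap. CD247 differed by 0.93 (SE 0.27, limma adjusted p = 0.372). The part of these leucocyte, macrophage and T cell genes in the LB3 values was not tested. Of 8 stromal genes none passed either. Their sum was lowest in tumour 4, the tumour with the highest EBF1 signal. It was highest in normal hen 36, which had the highest EBF1 signal of all hens. The part of stroma in the EBF1 values was not tested. All 7 epithelial genes had positive differences, and 4 were past the limma threshold, namely CDH1, CLDN3, CLDN10 and TSPAN1. The 7 genes summed to 26883 to 72874 in cancer and 15840 to 18869 in normal ovaries.

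**Figure D5:**
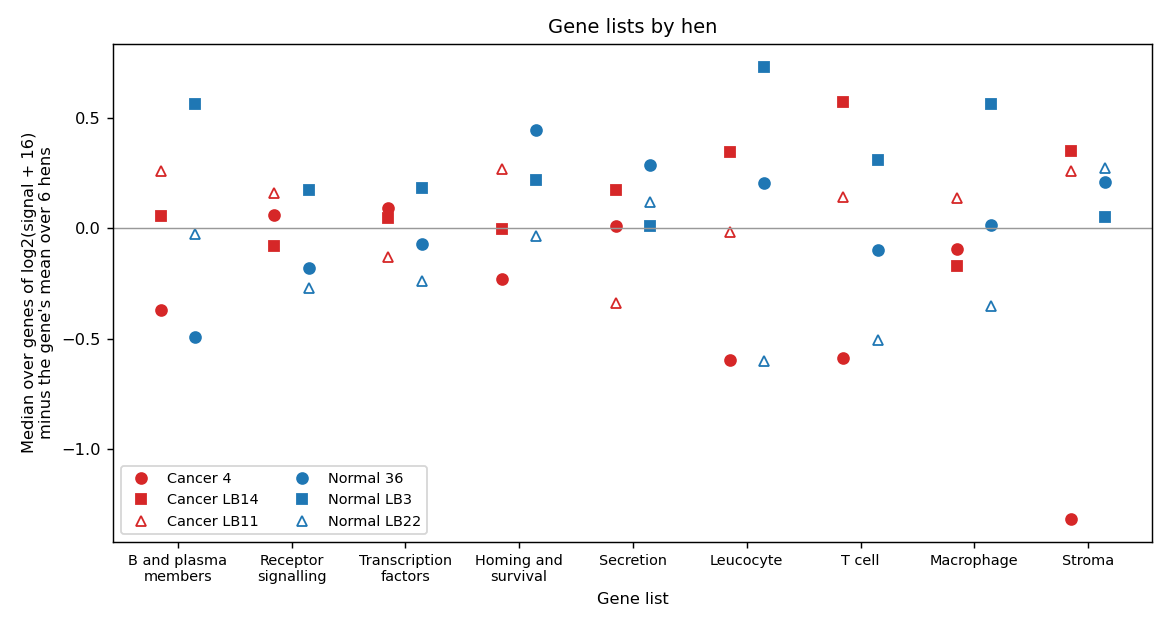
For each gene list on the axis, which leaves out the epithelial genes, and each hen, the median over genes of log2(signal + 16) minus the gene's mean over the 6 hens, with cancer hens left (red) and normal hens right (blue). Normal LB3 is highest for the B and plasma cell members (0.56), the leucocyte genes (0.73) and the macrophage genes (0.56). It is also highest, at smaller values, for receptor signalling (0.17) and transcription factors (0.18). The groups overlap in each of the lists drawn.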

How the data were processed

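The authors deposited 1 linear signal intensity per probe set and hen, and the submitters' processing notes name GCOS, Affymetrix's array software, without a version. The values show that each array had been scaled to a trimmed mean of 500.1 (2% trimmed at each end). The 75th percentiles were 515 to 541, and no further normalization was applied in the main fit. Scaling hides changes in total mRNA.

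96 Affymetrix control probe sets were left out, and no signal filter was applied, so that every member was tested. Signals as log2(signal + 16) went into limma 3.58.1 under R 4.3.3: lmFit, then eBayes with its trend option, two-sided p-values, and Benjamini-Hochberg adjustment over 38439 probe sets with a threshold of 0.05. Such differences understate changes of dim genes. The step was tested on simulated data with independent noise, where recovery was required only for the largest added difference. That test does not show whether differences of the size seen in the members would be found. The background limit is each array's 95th percentile of 59 controls for absent transcripts, as set in earlier work on these data.

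Genes were named from the platform's annotation, in which 27168 probe sets have 1 gene symbol, 177 several and 11094 none. All 10 members kept their symbol in the RefSeq table of GRCg7b, used for names only. BLNK and MRC1L-A were matched through synonyms, to probe sets annotated as SH2D6 and MRC1, and are counted in their lists. Whether the SH2D6 probe set reads BLNK is uncertain. For list genes the probe set with the highest mean signal stands for the gene. The text names all members, up to 4 genes per other B lineage list by size of difference, and the 5 profiles nearest to IGLL1 and JCHAIN. ELL2, HSP90B1, CXCR5, PTPRC, CD3E, LCK, CD247 and MRC1L-A were added after their values were seen. Members and lists were chosen with earlier results of these data known. The LB prefix of some titles was tried as a block, and no replicate numbers are shared between groups. Precision is limited by having 3 arrays in each group.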

Additional observations from a re-analysis of the deposited data

How the results depend on the processing

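Alternatives were pseudocounts of 1 and 64, filters at the 40th and 60th percentile of mean signal, a threshold of 0.1, array weights, quantile or 75th-percentile scaling, robust eBayes, eBayes with no trend, blocking on the LB prefix, using LB hens only, leaving out each hen, and averaging each gene's probe sets. No paired analysis was possible because the groups share no replicate numbers. Under 18 of these, all except the averaging, no member probe set was past the threshold, and the smallest adjusted p was 0.321. The filters kept 16 and 9 of the 24. Of the other B lineage genes 0 were past it, apart from 0 to 1 higher when a hen was left out. The 1 was PIGR without LB11, the tumour in which PIGR was below background. Over the array, 38 higher and 6 lower became 11 to 62 and 0 to 14, and 20 to 139 and 0 to 14 when a hen was left out.

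The filters, the threshold, both eBayes options and the LB block leave a gene's difference as it was by construction, and so does averaging for a gene with 1 probe set. Among the rest, BTK turned to −0.014 with quantile normalization, and IGLL1 to −0.11 and JCHAIN to −0.24 in the LB hens alone. With averaged probe sets IGLL1 was −0.0090 and PAX5 0.21. Leaving out a hen gave −0.38 to 0.45 for IGLL1, −0.46 to 0.56 for JCHAIN, −0.046 to 0.77 for CD79B, −0.0067 to 0.75 for CD72, −0.097 to 0.19 for BTK, −0.67 to 0.49 for PAX5, −0.79 to 0.14 for POU2AF1 and −1.07 to 0.38 for IRF4. Without cancer LB11 the sign turned for IGLL1, JCHAIN, CD72, BTK and PAX5, without normal 36 for IGLL1, JCHAIN and BTK, without normal LB3 for POU2AF1 and IRF4, and without normal LB22 for CD79B and BTK. It gave −0.72 to −0.43 for TNFRSF13B and −0.82 to −0.36 for EBF1. The cause of these turns was not tested. Signals near background (CD72, PAX5) limit what a difference there can show.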
